A study of Mus musculus with 8 samples.

Results

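Integrins are the transmembrane receptors through which a cell holds on to its surroundings, and each is a pair made of an alpha and a beta chain that together decide which ligand is bound. Laminins are the large cross-shaped glycoproteins of basement membranes, each built from an alpha, a beta and a gamma chain, and several integrins are receptors for them. In melanoma cells, integrins are known for their part in attachment to fibronectin, vitronectin and laminin during invasion and spread. The transcripts that encode these chains were examined here in B16F10 cells, a mouse melanoma line. Members were taken by name, as every row of the deposited table whose symbol is that of an integrin alpha chain, an integrin beta chain or a laminin chain. This gave 37 genes of 55414 in the table, namely 18 integrin alpha, 8 integrin beta and 11 laminin genes.

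RNA sequencing was performed on 8 libraries in 4 groups of 2, each kept for 24 hours at the stated oxygen. Wild-type cells (WT) and Ppif knockout cells (CypD KO) were kept at 21% O2, and stable lines carrying the empty pcDNA vector (Control) or pcDNA encoding PPIF (CypD OE) were kept at 1% O2. Ppif is the gene for cyclophilin D (CypD), a protein-folding enzyme found inside mitochondria. According to the study's methods the knockout cells were made with CRISPR/Cas9 and selected as clones with puromycin, and the vector lines were selected as clones with G418. Nothing in the sources used here says whether the 2 libraries of a group came from separate cultures, so the p-values measure only the spread between these libraries, which may be technical. The questions put to the data were how these chains differed between CypD KO and WT, between CypD OE and Control, and between Control and WT, where vector, selection and oxygen all change together and cannot be told apart. In CypD KO against WT, the knockout and the selection of clones likewise cannot be told apart, as no selection is described for WT. CypD OE and Control were both selected as clones, so the construct and differences between clones cannot be told apart there either. The deposited values are TPM, in which the authors scaled the abundance of each gene to its length and to the total of the library, so levels may be compared between genes.

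Ppif itself, the targeted gene, was at 50.7 and 50.0 TPM in WT, 10.4 and 12.1 TPM in CypD KO, 44.6 and 42.2 TPM in Control, and 50.3 and 49.3 TPM in CypD OE. It was lower in CypD KO than in WT (log2 fold change -2.07 ± 0.07 SE, limma adjusted p = 3.81e-06). In the libraries labelled CypD OE it lay above Control in both, but the difference did not pass the test (0.19 ± 0.07, adjusted p = 0.0794), so directions are given below for the libraries labelled CypD OE. All 8 listed melanocyte-lineage genes were present at 1 TPM or more, and their summed level was 15935 to 16040 TPM in WT, 12789 to 12958 in CypD KO, 20827 to 21385 in Control and 13775 to 13953 in CypD OE. Of 5 keratinocyte markers 4 were at 0 in every library. Of 8 leukocyte markers 4 were at 0, and their summed level was highest in CypD KO at 2.7 and 2.82 TPM, against 0.67 to 1.7 in WT. The endothelial markers, with Cdh5 at 0, summed to at most 4.21 TPM in any library, and of the platelet markers Pf4 was at 0 and Itga2b alone reached 1 TPM. The 5 fibroblast markers summed to 15.4 and 17.7 TPM in WT and 34.0 and 36.9 TPM in CypD KO, with Dcn at 0 throughout. That list went both ways, Postn being at 8.04 and 8.07 TPM in WT and 34.8 and 31.2 in CypD KO, and Col1a2 at 9.03 and 6.87 against 1.09 and 2.17. The part of these marker differences in the results below was not tested. In such bulk libraries fewer cells of a type and less RNA per cell cannot be told apart.

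Of the 37 members, 21 reached 1 TPM in at least 2 libraries and were tested, comprising 10 integrin alpha, 5 integrin beta and 6 laminin genes. The other 16 stayed below 1 TPM in every library. These were Itga2, Itga3, Itga11 and Itgae, the leukocyte alpha chains Itgad, Itgal, Itgam and Itgax, the beta chains Itgb2, Itgb6 and Itgb7, and the laminin chains Lama1, Lama2, Lama3, Lamb3 and Lamc3. Itgad and Itgb6 were at 0 in all 8 libraries. The highest level among the rest was that of Itga3, a laminin-binding alpha chain, at 0.78 TPM in a CypD KO library. For the untested members, 3 fragments would correspond to 0.02 to 0.118 TPM, as estimated from the steps between low values. Values under that level, such as 0.01 TPM for Itga2 in both Control libraries, rest on fewer fragments and were not interpreted. At least 10 TPM was reached by 13 members in some library. Of the tested members 2, Itga7 among them, passed the filter through the CypD KO libraries alone, so a difference from the other groups was built into their inclusion. Itgb8 reached 1 TPM in both CypD KO libraries and otherwise only in CypD OE replicate 2, at 1.13 TPM. It too needed the CypD KO libraries to pass.

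**Figure D1:**
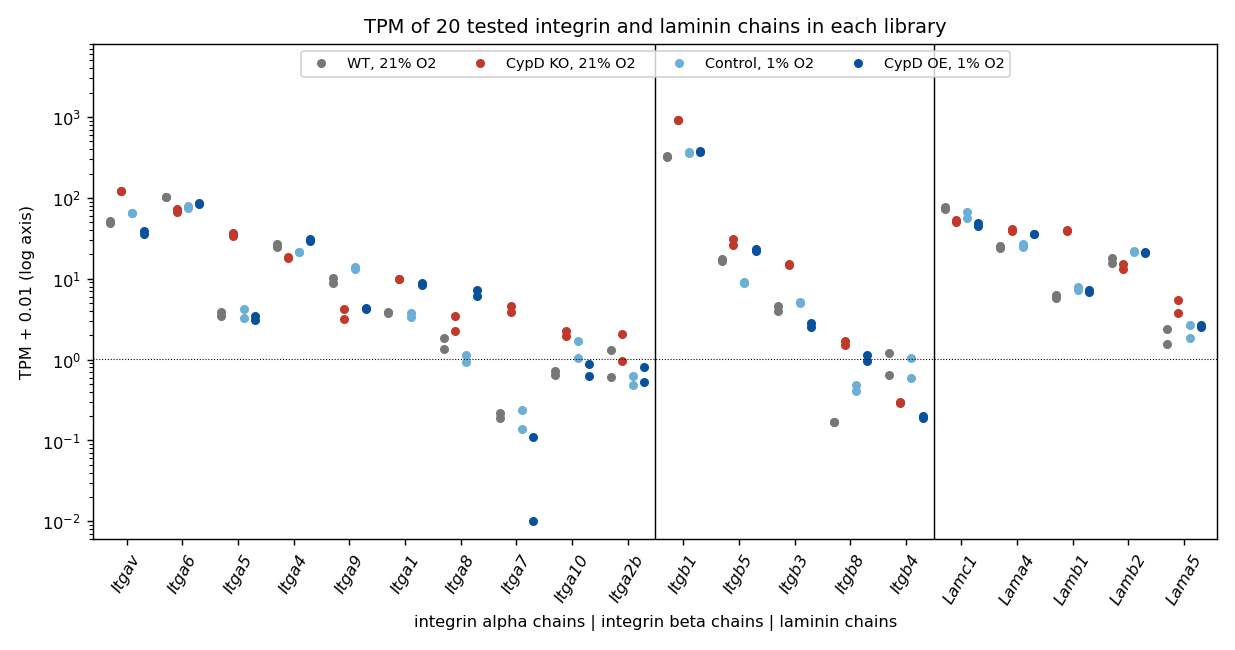
Level of 20 tested chains in each of the 8 libraries, as TPM plus 0.01 on a log axis, with genes grouped as integrin alpha, integrin beta and laminin and ordered by their highest value. Each point is 1 library, colours mark the 4 groups, and the dotted line marks 1 TPM. Itgb1 stands above every other chain, and the CypD KO points of Itga5, Lamb1 and Itga7 lie apart from those of the other 3 groups.

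The integrin transcript pool of WT cells was led by Itgb1, at 321 and 331 TPM, which encodes the beta1 chain shared by most laminin, collagen and fibronectin receptors. The most abundant alpha chains in WT were Itga6, of the laminin receptors, Itgav, of the RGD-binding receptors, and Itga4, which binds fibronectin and VCAM1. The laminin chains were led by Lamc1 with 76.6 and 73.0 TPM, followed by Lama4 and Lamb2, which are the chains of laminin-421. Counting known pairs whose chains were each at 1 TPM or more in both libraries of a group, 9 of 24 integrins were covered in WT, 12 in CypD KO, 9 in Control and 9 in CypD OE. The 8 pairs covered in all 4 groups were alpha1beta1, alpha4beta1, alpha5beta1, alpha6beta1, alpha9beta1, alphaVbeta1, alphaVbeta3 and alphaVbeta5. Pairs with Itga7 and with Itgb8 were covered in CypD KO alone, with Itgb8 near the filter. Of 14 laminin trimers the same 4 were covered in every group, laminin-411, laminin-421, laminin-511 and laminin-521. Protein and assembly were not measured.

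In CypD KO cells at 21% O2, most of the expressed chains were higher than in WT. Of the 21 tested members 13 were higher and 4 were lower at an adjusted p under 0.05, where 30.1% of all 13526 genes tested were called higher and 18.4% lower. The 13 include Itga7 and Itgb8, which needed the CypD KO libraries to be tested. Members had a median log2 fold change of 0.88, against 0.09 for all genes. Among the integrin alpha chains 5 of 10 were higher and 3 lower, among the beta chains 4 of 5 were higher and 0 lower, and among the laminin chains 4 of 6 were higher and 1 lower. Rescaling the libraries by the median of ratios left 13 members higher and 5 lower while changing the calls over all genes from 4066 higher and 2486 lower to 3422 higher and 3144 lower.

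The largest log2 fold change of TPM plus 1 was that of Itga5, which encodes the alpha5 chain of the classical fibronectin receptor (chr15:103252713-103275270, minus strand, GRCm39). Itga5 was at 3.86 and 3.41 TPM in WT, 36.5 and 34.2 in CypD KO, 3.23 and 4.17 in Control, and 3.07 and 3.47 in CypD OE. The CypD KO libraries were thus far above all 6 others, which overlapped each other. The mean was 9.73 times that of WT (log2 fold change 2.97 ± 0.13 SE, 95% interval 2.66 to 3.28, adjusted p = 8.48e-06).

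Itgb1, the partner of alpha5 (chr8:129411876-129460618, plus strand), was at 923 and 910.4 TPM in CypD KO, 364 and 365 in Control and 373 and 383 in CypD OE. It was 2.81 times its WT level in CypD KO (log2 fold change 1.49 ± 0.03, adjusted p = 6.57e-07). Both CypD KO libraries lay above both WT libraries, as they did for 44.4% of all genes tested. Of the other beta chains, Itgb3, which pairs with alphaV in a receptor for vitronectin and osteopontin, was at 3.97 and 4.55 TPM in WT and 14.9 and 15.3 in CypD KO (1.62 ± 0.11, adjusted p = 4.46e-05). Itgb5, another partner of alphaV, was at 17.7 and 16.7 TPM in WT and 26.3 and 31.0 in CypD KO (0.70 ± 0.09, adjusted p = 0.000949). Itgb8, whose pair with alphaV binds latent TGF-beta, was low throughout, at 0.16 TPM in both WT libraries and 1.67 and 1.49 in CypD KO. These values are given as a description, because Itgb8 needed its CypD KO libraries to be tested. The exception was Itgb4, the hemidesmosomal beta chain, at 1.18 and 0.63 TPM in WT and 0.29 and 0.28 in CypD KO, a difference that did not pass the test (adjusted p = 0.081).

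Itgav, the alpha chain shared by those beta partners (chr2:83554403-83637260), was at 49.2 and 52.0 TPM in WT and 121 and 120.5 in CypD KO, a 2.38-fold difference (log2 fold change 1.24 ± 0.06, adjusted p = 9.45e-06). Itga1, a collagen-binding chain, was at 3.78 and 3.86 TPM in WT and 9.88 and 9.94 in CypD KO (1.18 ± 0.10, adjusted p = 0.000116). Itga7 and Itga10, chains of laminin and collagen receptors best known from muscle and cartilage, were low in WT. Itga7 was at 0.21 and 0.18 TPM in WT and 4.6 and 3.84 in CypD KO, 0.23 and 0.13 in Control, and 0 and 0.10 in CypD OE, which is given as a description because it was tested through its CypD KO libraries alone. Itga10 was at 0.71 and 0.63 TPM in WT and 2.25 and 1.92 in CypD KO, 1.67 and 1.03 in Control, and 0.87 and 0.62 in CypD OE (0.88 ± 0.19, adjusted p = 0.0086). On the scale of log2 of TPM plus 1 these values understate the change of such low genes.

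The alpha chains that were lower in CypD KO were those of the main laminin receptor and of the alpha4 and alpha9 receptors. Itga6 was at 102 and 103 TPM in WT and 72.1 and 67.0 in CypD KO (log2 fold change -0.55 ± 0.05, adjusted p = 0.000207). Itga4 was at 24.6 and 26.7 TPM in WT and 18.3 in both CypD KO libraries (-0.46 ± 0.06, adjusted p = 0.00111). Itga9, which binds tenascin-C and osteopontin, was at 10.1 and 8.97 TPM in WT and 3.16 and 4.16 in CypD KO (-1.18 ± 0.13, adjusted p = 0.000392). In all 3 the CypD KO libraries lay below both WT libraries, as they did for 29.6% of all genes tested. Itga8, of an RGD-binding receptor for nephronectin, was at 1.82 and 1.36 TPM in WT and 3.41 and 2.23 in CypD KO (0.55 ± 0.20, adjusted p = 0.0563). Itga2b, of the platelet fibrinogen receptor, overlapped between groups at 1.29 and 0.60 against 0.95 and 2.09 TPM (adjusted p = 0.34).

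Among the laminins, Lamb1 showed the largest change of a chain above 5 TPM in WT. Lamb1, the beta1 chain (chr12:31315030-31379658, plus strand), was at 6.21 and 5.74 TPM in WT, 39.7 and 38.5 in CypD KO, 7.25 and 7.82 in Control and 6.78 and 7.30 in CypD OE, so that CypD KO stood apart from all other libraries (6.54 times WT, log2 fold change 2.52 ± 0.08, adjusted p = 3.13e-06). Lamb2, the alternative beta2 chain, was at 17.8 and 15.7 TPM in WT and 15.2 and 13.1 in CypD KO and did not pass the test (-0.23 ± 0.09, adjusted p = 0.0802). Lama4, the alpha chain of endothelial and mesenchymal laminins, was at 24.3 and 25.6 TPM in WT and 40.7 and 39.4 in CypD KO (0.66 ± 0.06, adjusted p = 0.000147). Lama5 was at 2.40 and 1.53 TPM in WT and 5.45 and 3.78 in CypD KO, 2.69 and 1.83 in Control, and 2.66 and 2.53 in CypD OE (0.92 ± 0.23, adjusted p = 0.0142). This call was lost without WT replicate 2 or without CypD KO replicate 1, with an adjusted p of up to 0.0841.

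Lamc1, the gamma1 chain of nearly all laminins (chr1:153094597-153208774, minus strand), moved against Lamb1 and Lama4, with which it assembles. It was at 76.6 and 73.0 TPM in WT and 49.9 and 52.6 TPM in CypD KO (log2 fold change -0.54 ± 0.08, adjusted p = 0.00198). Both CypD KO libraries lay below both WT libraries, as for 29.6% of all genes tested.

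**Figure D2:**
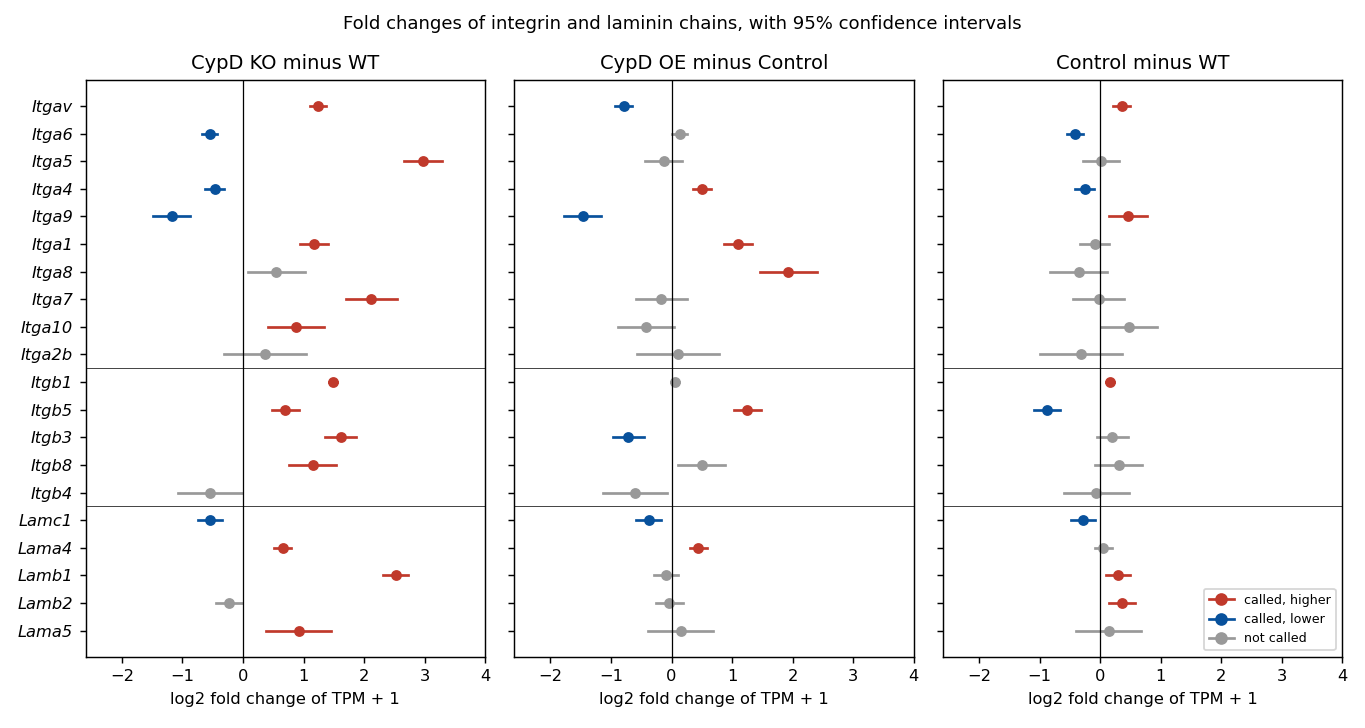
Log2 fold change of TPM plus 1 for 20 tested chains in 3 comparisons, with 95% confidence intervals from limma as lines, red for called higher, blue for called lower and grey for not called. The CypD KO panel holds 12 red and 4 blue points, the other panels 5 red and 4 blue points each. In the CypD KO panel the red points of Itga7 and Itgb8 are a description only. Both genes needed the CypD KO libraries to be tested.

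To show the sequence in front of Itga5, Itgb1 and Lamb1, which were far higher in CypD KO, and of Lamc1, which was lower, the 300 bases immediately upstream of the Ensembl canonical transcript start were read on GRCm39, each written 5′ to 3′ on the gene's own strand. Other annotated transcripts of Itga5 and Lamb1 start within these windows. Capitals mark matches, on either strand, to ACGTG or GCGTG (the core bound by hypoxia-inducible factors), TGANTCA (the AP-1 motif) or GGAATG (the TEAD motif).
Itga5, chr15:103275191-103275490, minus strand: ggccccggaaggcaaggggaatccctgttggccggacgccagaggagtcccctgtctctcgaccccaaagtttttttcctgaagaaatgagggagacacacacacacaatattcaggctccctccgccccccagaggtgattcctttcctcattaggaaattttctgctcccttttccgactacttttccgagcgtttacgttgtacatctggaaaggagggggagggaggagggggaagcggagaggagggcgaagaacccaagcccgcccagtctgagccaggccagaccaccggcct
Itgb1, chr8:129411576-129411875, plus strand: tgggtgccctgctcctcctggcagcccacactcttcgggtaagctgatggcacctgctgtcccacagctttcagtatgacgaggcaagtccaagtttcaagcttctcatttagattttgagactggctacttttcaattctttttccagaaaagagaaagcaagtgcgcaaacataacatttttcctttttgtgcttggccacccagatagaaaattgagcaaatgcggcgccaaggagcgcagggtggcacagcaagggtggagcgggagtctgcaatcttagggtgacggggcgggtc
Lamb1, chr12:31314992-31315291, plus strand: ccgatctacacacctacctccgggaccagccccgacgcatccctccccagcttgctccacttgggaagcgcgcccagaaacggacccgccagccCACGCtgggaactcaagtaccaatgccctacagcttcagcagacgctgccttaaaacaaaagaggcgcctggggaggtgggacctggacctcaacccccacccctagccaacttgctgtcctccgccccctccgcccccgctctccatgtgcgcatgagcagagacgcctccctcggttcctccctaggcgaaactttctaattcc
Lamc1, chr1:153208775-153209074, minus strand: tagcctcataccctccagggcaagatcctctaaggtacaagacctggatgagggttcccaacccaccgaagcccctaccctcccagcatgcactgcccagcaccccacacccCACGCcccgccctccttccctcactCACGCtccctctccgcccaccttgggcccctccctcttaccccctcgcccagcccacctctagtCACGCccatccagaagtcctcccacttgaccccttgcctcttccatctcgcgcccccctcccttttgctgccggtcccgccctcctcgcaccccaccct
The windows of Itga5 and Itgb1 held none of the motifs. Lamb1 held 1 match of the hypoxia core and Lamc1 held 3. The hypoxia core was found in 45.1% of 21770 such windows of protein-coding genes and in 15 of the 37 member windows. GGAATG was found in 14.6% of all windows and in 5 member windows, among them those of Itga1, Itga7, Itga10 and Itgb8. TGANTCA was found in 7.4% of all windows and in 3 member windows, those of Itgad, Itgax and Itgb4. A match is only a description of the letters, and binding was not measured.

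In the libraries labelled CypD OE, at 1% O2, the chains moved in both directions relative to Control. Of 21 members 5 were higher and 4 lower, where 19.0% of all genes were called higher and 18.3% lower, so the members' shares lay near the background. Members had a median log2 fold change of -0.04.

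The largest change was that of Itga8, at 0.92 and 1.14 TPM in Control and 6.17 and 7.32 in CypD OE (log2 fold change 1.93 ± 0.20, adjusted p = 0.000471). Itgb5 was at 8.72 and 9.11 TPM in Control and 21.8 and 23.3 in CypD OE (1.25 ± 0.09, adjusted p = 0.000124). Itga1 was at 3.32 and 3.72 TPM in Control and 8.95 and 8.36 in CypD OE (1.10 ± 0.10, adjusted p = 0.000273). These 3 chains belong to receptors for different ligands, nephronectin, vitronectin and collagen. Smaller rises were measured for Itga4, from 21.2 and 21.4 to 31.4 and 29.6 TPM (0.50 ± 0.06, adjusted p = 0.00128), and for Lama4, from 25.0 and 26.9 to 35.4 and 35.5 TPM (0.44 ± 0.06, adjusted p = 0.00149). Itgb8 lay just outside the threshold, at 0.40 and 0.48 TPM in Control and 0.95 and 1.13 in CypD OE (0.50 ± 0.16, adjusted p = 0.0501).

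Among the chains that were lower, Itga9 fell the most, from 13.9 and 13.0 TPM in Control to 4.16 and 4.32 in CypD OE (log2 fold change -1.47 ± 0.13, adjusted p = 0.000259). The alpha and beta chains of the vitronectin receptor alphaVbeta3 were both lower. Itgav was at 64.2 and 65.9 TPM in Control and 38.8 and 35.4 in CypD OE (-0.79 ± 0.06, adjusted p = 9.94e-05). Itgb3 was at 5.02 and 5.08 TPM in Control and 2.85 and 2.51 in CypD OE (-0.72 ± 0.11, adjusted p = 0.00241). Lamc1 was at 56.2 and 66.7 TPM in Control and 48.2 and 45.4 in CypD OE (-0.38 ± 0.08, adjusted p = 0.0119), a call that was lost without CypD OE replicate 2 and with only the 4 libraries of the comparison (highest adjusted p 0.0688). Itgb1, Itga5 and Lamb1, which differed so widely between CypD KO and WT, were not called here, with 95% intervals of -0.01 to 0.12, -0.44 to 0.18 and -0.29 to 0.11 for their log2 fold changes. Of the remaining members, Itga6 was at 74.5 and 79.4 TPM in Control and 86.6 and 83.0 in CypD OE (adjusted p = 0.0814), and Itgb4 at 0.59 and 1.05 against 0.19 and 0.18 TPM (adjusted p = 0.0734).

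The comparisons of CypD KO with WT and of CypD OE with Control share no library, so their calls can be set side by side. Of the 13 members higher in CypD KO, 3 were also higher in CypD OE (Itga1, Itgb5 and Lama4), 2 were lower (Itgav and Itgb3) and 8 were not called. Of the 4 lower in CypD KO, 2 were also lower in CypD OE (Itga9 and Lamc1), 1 was higher (Itga4) and 1 was not called (Itga6). Itga8 was called higher in CypD OE and not in CypD KO. Oxygen, vector and selection differed between these comparisons, and the difference between their fold changes was not tested.

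Control at 1% O2 was then compared with WT at 21% O2. Of 21 members 5 were higher and 4 lower in Control, where 12.1% of all genes were called higher and 12.1% lower, and the members had a median log2 fold change of 0.03, against 0.01 for all genes. Itgb5 had the largest change, being lower in Control (log2 fold change -0.88 ± 0.09, adjusted p = 0.00114), from 17.7 and 16.7 TPM in WT to 8.72 and 9.11 in Control. Itga6 fell by 0.41 on the log2 scale (adjusted p = 0.00246), from 102 and 103 TPM to 74.5 and 79.4. Itgav was higher by 0.36 ± 0.06 (adjusted p = 0.00519) and Itgb1 by 0.16 ± 0.03 (adjusted p = 0.0081), the latter being lost without the variance trend (adjusted p = 0.0657). Itga9 (0.46 ± 0.13, adjusted p = 0.0435), Lamb2 (0.36 ± 0.09, adjusted p = 0.0341) and Lamb1 (0.29 ± 0.08, adjusted p = 0.0474) were higher, and Itga4 (-0.25 ± 0.06, adjusted p = 0.0294) and Lamc1 (-0.28 ± 0.08, adjusted p = 0.0499) were lower, all near the threshold. Lamb2 was at 21.3 and 22.2 TPM in Control and 20.8 and 21.6 in CypD OE. Each of these 5 calls was lost under 7 to 12 of 15 alternatives. The members called dropped to 2 higher and 2 lower without WT replicate 2 or without Control replicate 1, and to 2 higher and 3 lower without Control replicate 2 or without either CypD OE library.

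In a comparison chosen after seeing the data, CypD KO was also set against Control, whose libraries and those of CypD KO are shared with the comparisons above. Genotype, vector, selection and oxygen all differ between these groups and cannot be told apart. Here 13 of 21 members were higher and 4 lower, where 27.4% of all genes were called higher and 16.5% lower. Itga7 and Itgb8, which needed the CypD KO libraries to be tested, are again among the 13. Itga5 was 9.56 times its Control level (log2 fold change 2.96 ± 0.13, adjusted p = 1.02e-05), Lamb1 5.19 times (2.23 ± 0.08, adjusted p = 5.51e-06) and Itgb1 2.52 times (1.33 ± 0.03, adjusted p = 9.93e-07). The members called lower were Itga9 (-1.64 ± 0.13, adjusted p = 0.000105), Lamb2 (-0.59 ± 0.09, adjusted p = 0.00239), Lamc1 (-0.25 ± 0.08, adjusted p = 0.0468) and Itga4 (-0.21 ± 0.06, adjusted p = 0.0345), and of these the Lamc1 and Itga4 calls were lost under 11 and 6 of 15 alternatives.

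These changes altered the make-up of the chain pools, which is given as a description because 2 libraries against 2 cannot reach p = 0.05 in an exact permutation test, the smallest two-sided value being 0.333. The summed level of all integrin beta chains was 345 and 353 TPM in WT and 966 and 959 in CypD KO, with Itgb1 at 93.2 to 96.0% of the sum in every library. The alpha chains summed to 198 and 201 TPM in WT and 273 and 266 in CypD KO, a smaller difference than for the beta chains. Itga6 made up 51.6 and 51.2% of the alpha sum in WT and 26.4 and 25.2% in CypD KO. Itgav took its place as the most abundant alpha chain, at 24.8 and 25.8% in WT and 44.3 and 45.4% in CypD KO. Itga5 went from 1.95 and 1.69% to 13.4 and 12.9%. In CypD OE the share of Itgav was 21.5 and 20.4%, against 34.8 and 34.5% in Control, and that of Itga4 was 17.3 and 17.1%, against 11.5 and 11.2%.

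The laminin beta pool changed its leading chain. Lamb1 was 25.2 and 26.7% of it in WT, 72.2 and 74.4% in CypD KO, 25.4 and 26.1% in Control and 24.6 and 25.2% in CypD OE. Lama4 stayed between 87.8 and 94.3% of the laminin alpha pool in all 8 libraries.

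**Figure D3:**
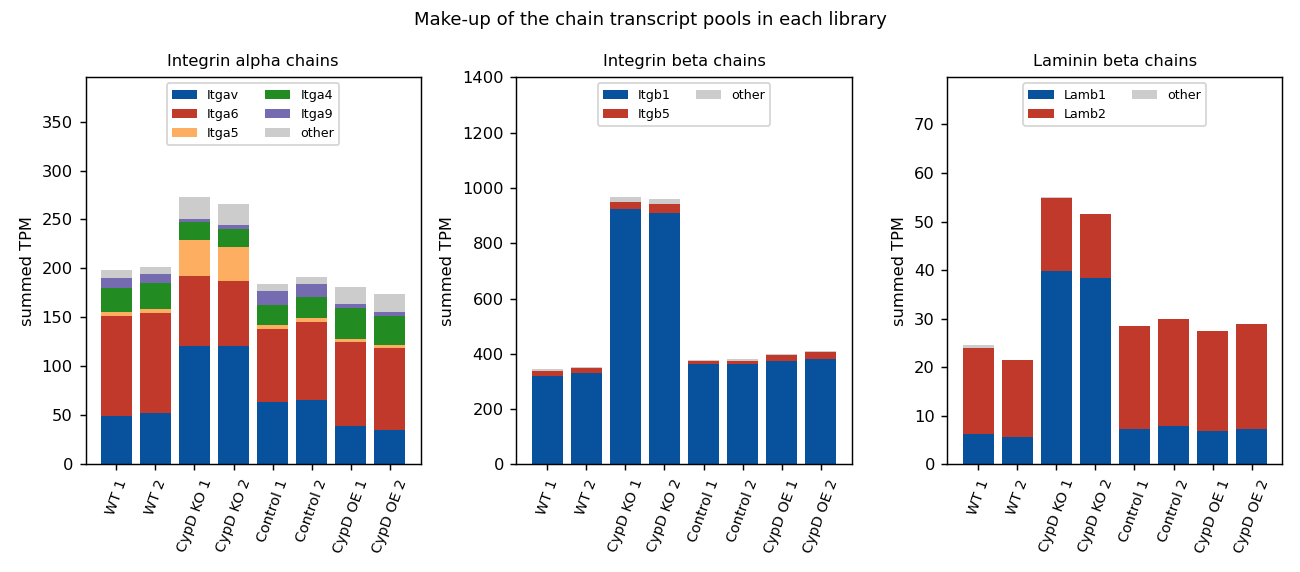
Summed TPM of integrin alpha, integrin beta and laminin beta chains in each library, stacked by chain, with each vertical axis starting at 0. In both CypD KO libraries Itgav exceeds Itga6 and Lamb1 exceeds Lamb2, whereas in the other 6 libraries Itga6 exceeds Itgav and Lamb2 exceeds Lamb1.

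The ligands that integrins bind outside the laminins showed a wider change in CypD KO. Of 41 listed ligand genes 22 were tested, and 16 were higher and 3 lower than in WT, with a median log2 fold change of 2.02 against 0.09 for all genes, of which 30.1% were higher and 18.4% lower. Col1a1, a chain of type I collagen, was at 2.22 and 1.66 TPM in WT and 38.5 and 41.1 in CypD KO (log2 fold change 3.80 ± 0.21, adjusted p = 2.29e-05). Edil3, a secreted ligand of alphaVbeta3 and alphaVbeta5, was at 1.07 and 0.92 TPM in WT and 21.0 and 21.4 in CypD KO (3.48 ± 0.15, adjusted p = 8.46e-06). Ccn2, a matricellular protein, was at 9.01 and 11.7 TPM in WT and 121 and 122 in CypD KO (3.44 ± 0.12, adjusted p = 3.3e-06). Fn1, which encodes fibronectin, the main ligand of alpha5beta1, and was named here after its values were seen, was at 28.4 and 31.1 TPM in WT and 289 and 286 in CypD KO (3.23 ± 0.05, adjusted p = 6.54e-07). The lower ligands were Col1a2, the partner chain of Col1a1 in type I collagen (-1.79 ± 0.27, adjusted p = 0.00176), Npnt, the nephronectin gene (-1.17 ± 0.28, adjusted p = 0.0126), and Jam3, a junctional adhesion molecule (-0.45 ± 0.07, adjusted p = 0.00224). In CypD OE 7 ligands were higher and 6 lower than in Control, where 19.0% of all genes were higher and 18.3% lower. Spp1, the osteopontin gene, was at 33.5 and 31.5 TPM in Control and 0.07 and 0.20 in CypD OE (-4.88 ± 0.17, adjusted p = 4.67e-06), while it was at 4.68 and 2.96 TPM in WT and 49.7 and 47.9 in CypD KO. Ccn2 (1.33 ± 0.12, adjusted p = 0.000256), L1cam (1.19 ± 0.19, adjusted p = 0.00337) and Thbs1 (1.10 ± 0.06, adjusted p = 3.4e-05) had the largest rises, and Col1a2 (-1.54 ± 0.27, adjusted p = 0.00482) and Col1a1 (-1.44 ± 0.21, adjusted p = 0.00237) were both lower. In Control against WT 5 ligands were higher and 3 lower, where each direction held 12.1% of all genes.

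Of 60 genes for integrin adaptors and signalling 52 were tested, and 31 were higher and 4 lower in CypD KO than in WT, with a median log2 fold change of 0.42, where 30.1% of all genes tested were higher and 18.4% lower with a median of 0.09. The largest rises were those of focal adhesion components that link integrins to actin. Zyx, encoding zyxin, was at 59.2 and 72.9 TPM in WT and 272 and 273 in CypD KO (log2 fold change 2.04 ± 0.09, adjusted p = 7.51e-06). Vcl, encoding vinculin, was at 13.9 and 13.8 TPM in WT and 46.8 and 44.8 in CypD KO (1.65 ± 0.09, adjusted p = 1.59e-05), and Actn1, an alpha-actinin, at 71.2 and 63.6 against 213 and 207 (1.63 ± 0.07, adjusted p = 6.44e-06). Itgb3bp, named for binding the beta3 tail but also a centromere protein (-0.59 ± 0.10, adjusted p = 0.00318), the kindlin gene Fermt2 (-0.33 ± 0.04, adjusted p = 0.000847) and the tensin gene Tns3 (-0.30 ± 0.06, adjusted p = 0.00668) were among the 4 that were lower. In CypD OE 15 were higher and 6 lower than in Control, where 19.0% of all genes were higher and 18.3% lower, led by Ptk2b, a kinase related to focal adhesion kinase (1.55 ± 0.17, adjusted p = 0.000618), Kank1 (1.27 ± 0.16, adjusted p = 0.00134) and Lims2 (1.01 ± 0.11, adjusted p = 0.000641), and by Tns1 downwards (-1.44 ± 0.33, adjusted p = 0.0136). In Control against WT 5 were higher and 3 lower, where each direction held 12.1% of all genes.

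Of 46 genes for basement membrane components and other laminin partners 31 were tested, and 17 were higher and 6 lower in CypD KO, with a median log2 fold change of 0.28, where 30.1% of all genes were higher and 18.4% lower with a median of 0.09. The 17 include Ntn4, encoding netrin-4, which binds laminin gamma chains. Ntn4 was at 0.26 and 0.45 TPM in WT and 3.47 and 3.53 in CypD KO. Since it stayed below 1 TPM in the other 6 libraries, it was tested through CypD KO alone and its values are a description. Sdc4, a syndecan that acts with integrins at focal adhesions, was at 21.5 and 22.5 TPM in WT and 69.5 and 71.2 in CypD KO (1.63 ± 0.08, adjusted p = 1.19e-05). Sparc, a matricellular collagen-binding protein, was at 797 and 795 TPM in WT and 2369 and 2344 in CypD KO (1.56 ± 0.02, adjusted p = 6.54e-07). The lower genes were led by Hmcn1 (-0.94 ± 0.11, adjusted p = 0.000446) and Fbln1, encoding fibulin-1 (-0.85 ± 0.06, adjusted p = 7.67e-05). In CypD OE 11 were higher and 7 lower than in Control, where 19.0% of all genes were higher and 18.3% lower, and in Control against WT 7 were higher and 3 lower, where each direction held 12.1% of all genes. Fbln1 was also lower in CypD OE (-1.75 ± 0.06, adjusted p = 5.93e-06), and Smoc1 was at 2.76 and 2.73 TPM in Control and listed at 0 in both CypD OE libraries. Col1a2, Postn and Vwf belong both to the ligand list and to a marker list of another cell type.

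**Figure D4:**
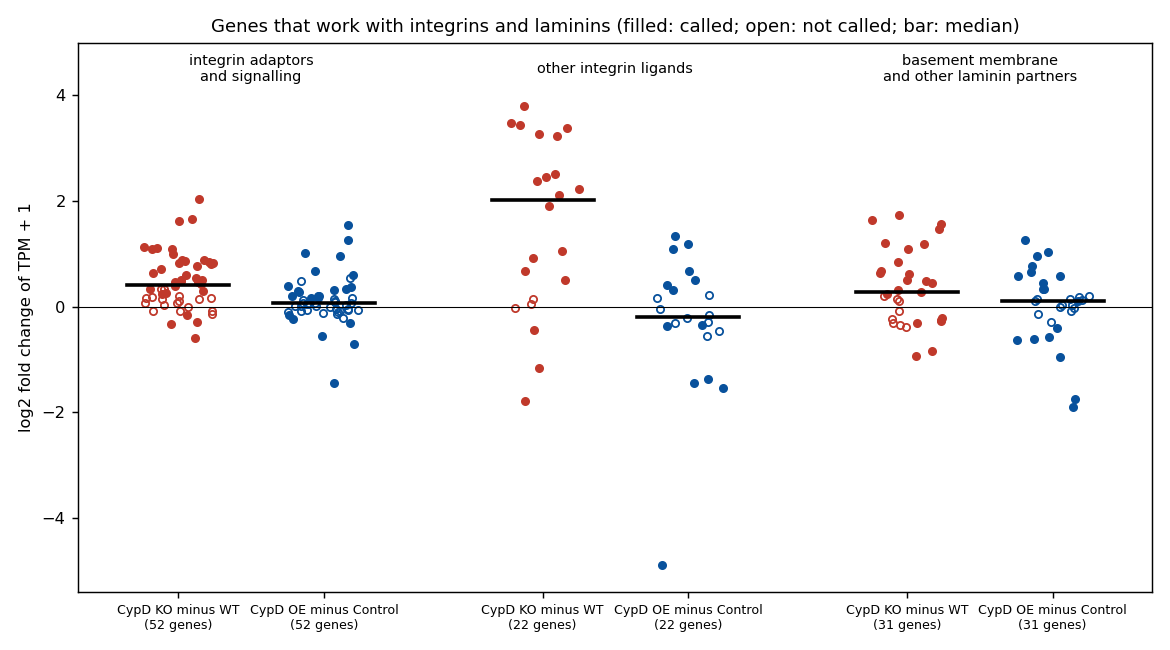
Log2 fold change of TPM plus 1 for each tested gene of the 3 accompanying lists, in CypD KO against WT (red) and CypD OE against Control (blue), with filled points for called genes and bars for medians. The ligand list in CypD KO has the highest median, 2.02, and the lowest point is Spp1 in CypD OE at -4.88.

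Exons of Itga1, Itga4, Itga7, Lama4, Lama5, Lamb1 and Itgb4 overlap those of a named gene on the opposite strand in the annotation, and the strand setting of the counting is not given in the sources used here, so reads of such pairs could not be told apart. Exons of Itgav, Itga6, Itga8, Itga9 and Itga2b overlap those of a gene with only a provisional symbol on the opposite strand. For Itga1 and Itga10 such genes overlap on both strands, and on the same strand the strand setting could not separate the reads. Itga5, Itgb1, Itgb3, Itgb5, Itgb8, Lamb2 and Lamc1 have no exon overlap with another gene on either strand.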

How the data were processed

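Total RNA depleted of ribosomal RNA was sequenced as paired reads of 150 bases. Per the labels and the study's methods, the authors trimmed reads with cutadapt 3.4, aligned them with STAR 2.7.8a to GRCm39 (Ensembl) and estimated abundances with RSEM 1.3.1. They deposited TPM values, given to 2 decimals, in 1 table. Such values hold no read number, so depth is unknown; from the steps between low values, 1 fragment at 1000 effective bases was worth 0.0813 to 0.0974 TPM. Their DESeq2 tests on counts were not used. Genes at 1 TPM or more in at least 2 of 8 libraries (13526) were tested with limma 3.58.1 (R 4.3.3) on log2(TPM + 1), so fold changes are on that scale, with 4 group means, a variance trend and Benjamini-Hochberg adjustment over all genes tested, and called at 0.05. The script was tested on simulated data. Alternatives were another pseudocount, filters, scaling, 4 libraries only, no trend, a replicate block and each library left out.

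Of the tested members, 1 is in the counts but is not reported here. Members and gene lists were chosen with earlier results of these data known. All members at 10 TPM or more or called, and from each list up to 3 called genes of largest change in each direction, were eligible to be named. Coordinates and overlaps are from GENCODE M39 on GRCm39.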

Additional observations from a re-analysis of the deposited data

How the results depend on the processing

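The counts of members called in CypD KO against WT, CypD OE against Control and CypD KO against Control stayed within 1.5 times under every alternative tried. For Control against WT, 9 members were called, and this dropped to 5 with no filter on low TPM, 4 with only the 4 libraries of the comparison and 5 with the replicate block, and leaving out each library in turn gave 4 to 6. The cause was not tested, and the fits on 4 libraries or with 1 left out also used fewer libraries. The replicate block moved no other total of members called by over 1.5 times, but in CypD KO against Control it left 2 members lower in place of 4. The deviations of same-numbered libraries correlated at -0.03 to 0.11 between groups, the highest value being that of WT with CypD KO. Such values cannot settle whether library numbers pair the samples. Over all genes, calls in Control against WT fell from 1634 higher and 1635 lower to 998 and 983 with 4 libraries, and to 939 to 1466 higher and 983 to 1434 lower with each library left out. Among members that were not called, leaving out 1 library changed the sign in Control against WT for Itga5 (-0.13 to 0.16), Itga7 (-0.081 to 0.042), Itgb4 (-0.27 to 0.15) and Lama5 (-0.073 to 0.35), and in CypD OE against Control for Itga2b (-0.017 to 0.24), Itga5 (-0.28 to 0.012) and Lama5 (-0.038 to 0.34). No member that was called changed sign under any alternative. With 2 libraries a group, small differences in chains near 1 TPM were not detectable.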
